A study of Sus scrofa with 18 samples.

Results

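Collagen genes were followed in the fetal pig brain from gestation day 45 (GD45) over GD60 to GD90. All genes of the deposited gene table whose name is COL, a number, A and a number were taken, which gave 41 of 31908 genes. The table itself named 39 of them, and COL4A1 and COL24A1 were named from a table that pairs the same Ensembl identifiers with symbols. RNA was from 18 brains of untreated fetuses, with 3 females and 3 males at each day, and gave 1 library per fetus. Landrace × Large White gilts had been bred by artificial insemination to a boar line called LR-M6, and the day of insemination counted as GD1. Each library was made from poly(A)-selected RNA of a homogenized brain, so neurons, glia, vessels and any attached meninges were measured together. In such bulk samples fewer cells of a type and less RNA per cell cannot be told apart. Libraries are named here by sex, day and piglet number, as in male GD45 replicate 17. The labels name no dam. Fetuses that share a day and a litter size were taken as littermates, which gave 9 litters of 1 female and 1 male each, 3 litters per day.

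Collagens are secreted or membrane-bound proteins built of 3 chains wound into a triple helix. Fibrillar collagens form the banded fibrils of connective tissue, which in the brain lie in the meninges and around the larger vessels. Collagen IV chains form the sheet-like network of basement membranes, which wrap every brain capillary and lie under the pial surface. The other collagens coat fibrils, form beaded filaments or anchoring networks, or span the cell membrane, and several of them are made by neurons. By these textbook classes the 41 genes comprised 11 fibrillar, 6 basement membrane, 5 beaded filament, 8 fibril-associated, 3 network-forming or anchoring, 4 transmembrane and 2 multiplexin genes, and 2 others. COL9A2, COL20A1 and COL7A1 were not analysed here.

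The libraries held 15118843 to 19729783 counts on genes, with a median of 16413097, and the 41 collagen genes took 0.219% to 0.338% of them. Levels are given below as CPM, gene counts scaled by the total of the library. Levels of different genes are compared only after division by exon length (FPKM). On the FPKM scale COL4A1 stood highest, with a mean level of 88.6 ± 13.1 (SD, n = 18), followed by COL1A1 at 82.0 ± 21, COL1A2 at 69.1 ± 10.9, COL4A2 at 64.9 ± 5.18 and COL3A1 at 60.3 ± 18.5 FPKM. Neighbours among these 5 differed by less than the larger of their SDs, and together the 5 held 63.5% of all collagen counts. The order of COL4A1 rests on a short model: in the table the gene covers chr11:76858296-76888850 (minus strand, Sscrofa11.1) with 2651 exonic bases, whereas the RefSeq model runs on to position 76997409. Next came COL26A1 with a mean level of 41.3, COL6A2 with 34.1, COL9A3 with 28.7, COL6A1 with 23 and COL18A1 with 13.1 FPKM, and all further genes had mean levels of 8.77 FPKM or less. COL6A5 and COL10A1 did not pass the filter on low counts: COL6A5 had no count in any GD45 or GD60 library and at most 6 counts in a GD90 library, and COL10A1 had 0 to 3 counts in every library. At the depth of these libraries a count of 0 allows a level of up to 0.152 to 0.198 CPM (3 counts), for counting error only.

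A GD45 and a GD60 library stood apart in many of these genes. Of the 39 genes tested, 25 had their lowest GD45 level in male GD45 replicate 17, and 22 had their lowest GD60 level in female GD60 replicate 15. These CPM are without the TMM scaling used in the tests. The TMM factor was 0.849 in male GD45 replicate 17 and 1.02 to 1.07 in the other GD45 libraries, so its CPM read low for genes in general. It was 0.971 in female GD60 replicate 15 and 0.943 to 1.05 in the other GD60 libraries. How many of all genes were lowest in these libraries was not counted. The 11 fibrillar genes summed to 800 CPM in male GD45 replicate 17 and to 1269.5 to 1716 CPM in the other GD45 libraries. A list of 12 meningeal and perivascular fibroblast markers (LUM, DCN, OGN and others) summed to 124 CPM in the same library, the lowest of the 18 before TMM scaling. The next lowest sum was 126 CPM, in female GD90 replicate 7. Female GD45 replicate 18, the littermate of male GD45 replicate 17, had 207 CPM, and the remaining GD45 libraries had 208 to 274 CPM.

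**Figure D1:**
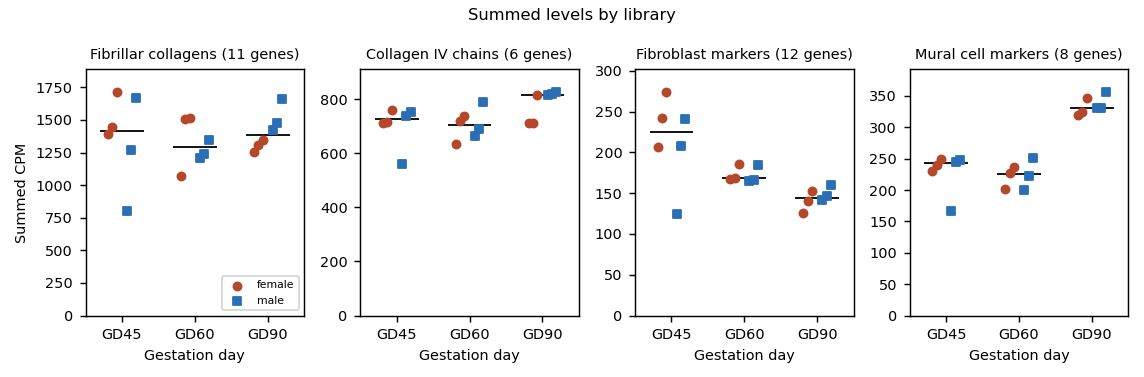
Summed level (CPM, linear axis from 0) of the 11 fibrillar collagen genes, the 6 collagen IV genes, 12 fibroblast markers and 8 mural cell markers in each library by gestation day. Circles are females, squares males and the line is the median of 6 libraries. Mural cell markers lie at 320 to 357 CPM at GD90, above all libraries of the earlier days.

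The first question was how collagen levels differed between gestation days with the sexes averaged. Between GD45 and GD60, 10 of the 39 collagen genes tested passed an adjusted p of 0.05 (edgeR quasi-likelihood F test, Benjamini-Hochberg adjustment over 16325 genes), 5 higher and 5 lower at GD60. The share of all genes called in this comparison was 16.7%, with 9.35% higher and 7.37% lower. Between GD60 and GD90, 19 of 39 passed, 14 higher and 5 lower at GD90, where 42.4% of all genes were called, 21.4% higher and 20.9% lower. The median log2 change of the 39 genes was -0.06 in the first period and 0.14 in the second, beside -0.01 and -0.01 for all genes tested. Both periods use the same GD60 libraries, so a gene's changes in the first and the second period are given side by side and not as independent results. Summed over the family, the level did not separate the days: the 41 genes summed to 2194 to 3382 CPM at GD45, 2313 to 3044 at GD60 and 2672 to 3231 CPM at GD90.

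**Figure D2:**
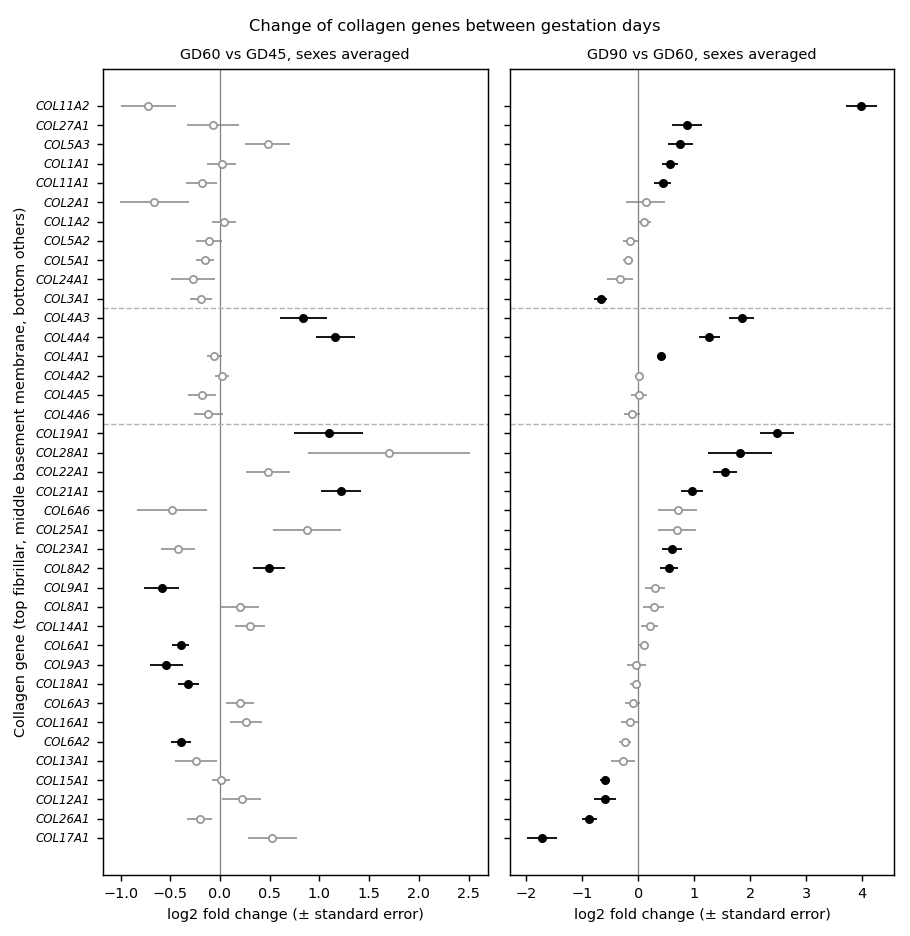
Log2 fold change (x axis, with its standard error as bars) of the 39 collagen genes tested, at left GD60 against GD45 and at right GD90 against GD60, with the sexes averaged. Filled points passed an adjusted p of 0.05 and dashed lines separate fibrillar, basement membrane and other collagens. COL11A2 lies farthest to the right at GD90, with a log2 change of 3.98.

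None of the 11 fibrillar genes passed between GD45 and GD60 by edgeR's quasi-likelihood test, where 16.7% of all genes were called. An unadjusted p under 0.05 was reached by 2 of the 11 and by 4964 of the 16325 genes tested. DESeq2 and edgeR's likelihood ratio test each called 1 of the 11, COL11A2. In the later period 6 of the 11 passed, 5 higher and 1 lower at GD90, where 42.4% of all genes were called, 21.4% higher and 20.9% lower. COL1A1 encodes the main chain of type I collagen, the chief fibril protein of connective tissue, and its partner chain is encoded by COL1A2. The COL1A1 level (lowest, median and highest library) was 216, 417 and 541 CPM at GD45, 327, 407 and 499 CPM at GD60, and 526, 596 and 674 CPM at GD90. All 6 GD90 libraries lay above all 6 GD60 libraries, while the GD45 and GD60 ranges overlapped. COL1A1 was 1.48-fold higher at GD90 than at GD60, a log2 change of 0.57 ± 0.15 (SE; edgeR adjusted p = 0.0051), after 0.02 ± 0.15 from GD45 to GD60 (adjusted p = 0.96). For COL1A2 the level was 201, 358 and 420 CPM at GD45, 294, 349 and 403 CPM at GD60, and 328, 364 and 452 CPM at GD90, and these ranges overlapped on all days. Its log2 change was 0.04 ± 0.12 in the first period and 0.11 ± 0.12 in the second (edgeR adjusted p = 0.85 and 0.49).

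COL3A1 encodes the chain of type III collagen, which shares fibrils with type I in vessel walls and meninges and is a ligand of the adhesion receptor GPR56 on neural progenitors. Its level was 255, 429 and 529 CPM at GD45, 297, 374 and 422 CPM at GD60, and 194, 216 and 296 CPM at GD90. Every GD90 library lay below every GD60 library, the closest pair being 296 and 297 CPM. COL3A1 fell by 0.67 ± 0.11 on the log2 scale from GD60 to GD90 (edgeR adjusted p = 0.00014), after a log2 change of -0.19 ± 0.11 that did not pass (adjusted p = 0.26). COL1A1 and COL3A1 thus changed in opposite directions at GD90. Within single libraries the FPKM ratio of COL1A1 to COL3A1 was 0.806 to 1.08 at GD45, 0.932 to 1.24 at GD60 and 2.22 to 3.05 at GD90, and that of COL1A1 to COL1A2 was 0.943 to 1.16, 0.957 to 1.13 and 1.34 to 1.59. These ratios were chosen after the values had been seen and are descriptions with no test. COL3A1 overlaps COL5A2, on the opposite strand, over 3960 bases and the counting is not stated to use strand, so reads there could be assigned to either gene or to none.

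Because the level of COL1A1 rose at GD90, the 250 bases before its start are shown (RefSeq genome, Sscrofa11.1, 5′ to 3′ on the gene's own strand), at chr12:26397181-26397430 (minus strand). Capitals mark CCAAT or its reverse complement ATTGG, a motif read by the factor NF-Y.
COL1A1: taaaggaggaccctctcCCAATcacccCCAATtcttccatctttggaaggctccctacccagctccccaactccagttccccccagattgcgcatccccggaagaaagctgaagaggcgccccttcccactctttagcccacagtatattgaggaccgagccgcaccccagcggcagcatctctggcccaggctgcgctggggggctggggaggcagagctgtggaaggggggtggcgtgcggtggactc
The COL1A1 window held 2 CCAAT motifs, where 31.5% of 30438 windows of 250 bases before the gene starts of the deposited table hold at least 1 on either strand. It held no GGGCGG, which 34.2% of windows hold, and no TATAAA, which 13.4% hold. Bases G and C made up 62.8% of the window. The COL1A1 window lies upstream of the RefSeq start, which is before the start at position 26397003 in the deposited table. The bases between these starts were not searched, so the shares are not a like-for-like comparison. A match is a description of letters and not a binding site.

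**Figure D3:**
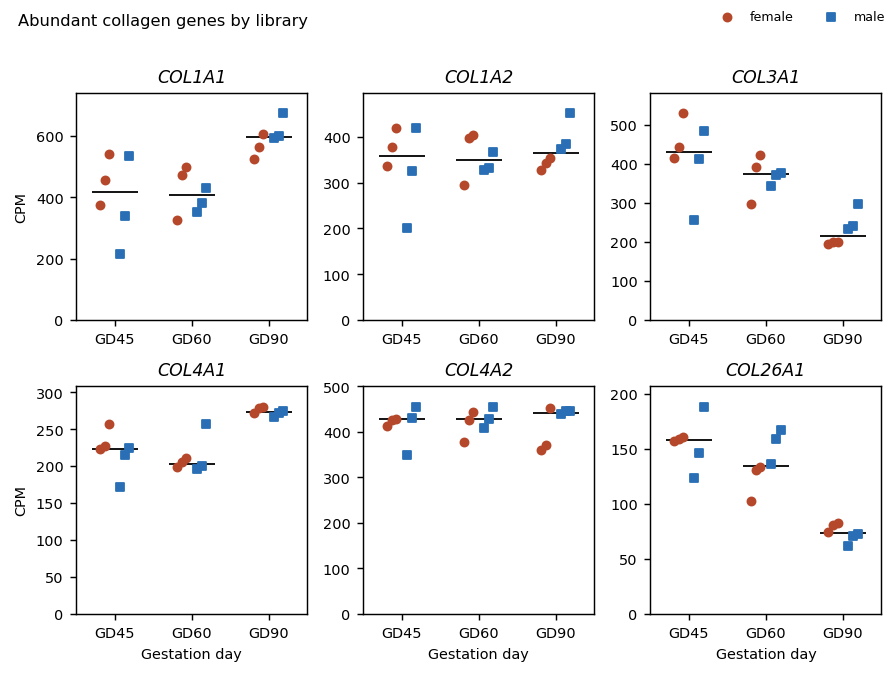
Level (CPM, linear axis from 0) of 6 abundant collagen genes in each library by gestation day. Circles are females, squares males and the line is the median of 6 libraries. COL1A1 lies at 526 to 674 CPM at GD90 and COL3A1 at 194 to 296 CPM, whereas COL1A2 and COL4A2 show overlapping ranges on all days.

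By log2 change from GD60 to GD90, COL11A2 changed most of the 39 genes tested. It encodes a chain of type XI collagen, which sets the diameter of collagen fibrils in cartilage and the inner ear, and lies at chr7:25204496-25234888 on the minus strand. The level was 2.41, 3.77 and 6.26 CPM at GD45, 1.52, 2.65 and 2.96 CPM at GD60, and 24.9, 37.9 and 52.8 CPM at GD90. All 6 GD90 libraries stood above the 12 earlier ones, with no library between 6.26 and 24.9 CPM. COL11A2 rose 15.8-fold from GD60 to GD90, a log2 change of 3.98 ± 0.28 (edgeR adjusted p = 1.45e-08), after a log2 change of -0.72 ± 0.28 that did not pass (adjusted p = 0.084). That first change passed by DESeq2 (adjusted p = 0.039), by edgeR's likelihood ratio test (0.045) and without male GD45 replicate 14 (edgeR adjusted p = 0.025). The later change was 3.77 to 4.08 on the log2 scale when each library in turn was left out, and 3.75 to 3.99 under the other settings. Its cartilage partners had other values. COL11A1, another chain of type XI collagen, had a level of 16.8 to 29.0 CPM at GD60 and 20.2 to 44.2 CPM at GD90 and was 1.36-fold higher at GD90 (log2 change 0.44 ± 0.15, edgeR adjusted p = 0.030). The COL11A1 call passed in 12 of the 18 fits that left out a library, and the adjusted p reached 0.0895 without male GD90 replicate 10. Without TMM scaling the COL11A1 change did not pass (edgeR adjusted p = 0.0971). COL2A1, the main collagen of cartilage, had a level of 2.81, 10.6 and 14.6 CPM at GD45, 1.33, 4.30 and 13.0 CPM at GD60, and 3.41, 4.82 and 11 CPM at GD90, with ranges that overlapped on all days and log2 changes of -0.66 ± 0.34 and 0.14 ± 0.35 (edgeR adjusted p = 0.21 and 0.78). The FPKM ratio of COL11A2 to COL11A1 was 0.0964 to 0.208 at GD60 and 0.894 to 2.73 at GD90.

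Reads on COL11A2 lay along most of the gene. In the exon table, the exons in the first, middle and last part of the gene (equal lengths of genome from its start) received 19, 10 and 63 reads over the 6 GD60 libraries and 229, 248 and 745 reads over the 6 GD90 libraries. The ratio of GD90 to GD60 reads was 12.1, 24.8 and 11.8 in these parts. The exon table held 33.2% of the gene's counts.

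The 250 bases before the COL11A2 start are shown for the largest change in the family, at chr7:25234889-25235138 (minus strand, RefSeq genome, Sscrofa11.1, 5′ to 3′ on the gene's strand). Capitals mark CCAAT (here as ATTGG) and GGGCGG, a GC box.
COL11A2: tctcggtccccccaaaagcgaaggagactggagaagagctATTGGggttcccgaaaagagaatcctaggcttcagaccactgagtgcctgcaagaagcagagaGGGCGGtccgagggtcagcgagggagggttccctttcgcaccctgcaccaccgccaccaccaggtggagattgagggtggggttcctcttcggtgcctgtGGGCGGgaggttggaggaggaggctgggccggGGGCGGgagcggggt
The window held 1 CCAAT and 3 GGGCGG motifs, the nearest GGGCGG ending 9 bases before the start, and no TATAAA.

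**Figure D4:**
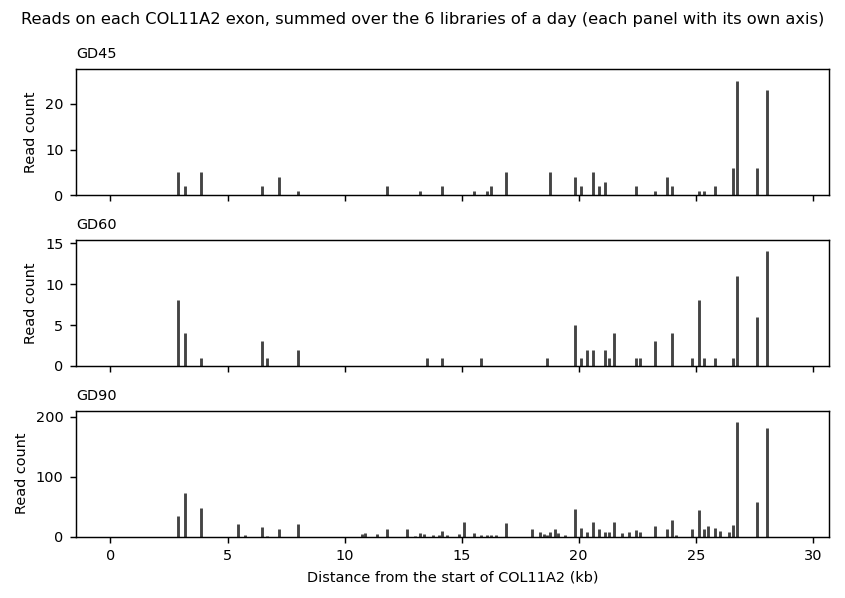
Reads on each exon of COL11A2 (y axis, read count, each panel with its own scale from 0) by distance from the start of the gene (kb), summed over the 6 libraries of GD45, GD60 and GD90. Reads at GD90 lie along most of the gene, with 229, 248 and 745 reads in its first, middle and last part.

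Of the minor fibrillar genes, COL27A1, a cartilage fibril collagen, had a level of 2.08, 3.89 and 7.24 CPM at GD60 and 4.76, 7.01 and 13.5 CPM at GD90, and COL5A3, a chain of type V collagen, had 6.03, 11.7 and 14.3 CPM at GD60 and 14.2, 16.2 and 23.1 CPM at GD90. The day ranges overlapped for COL27A1, and for COL5A3 they met at 14.2 and 14.3 CPM. COL27A1 rose 1.83-fold (log2 change 0.87 ± 0.26, edgeR adjusted p = 0.012) and COL5A3 1.68-fold (0.75 ± 0.22, adjusted p = 0.012). COL5A1, COL5A2 and COL24A1 passed in neither period, with log2 changes from -0.33 to -0.11. The later change of COL5A1 was -0.18 (edgeR adjusted p = 0.12), and it passed at -0.24 without female GD60 replicate 15 (adjusted p = 0.040) and at -0.25 without female GD90 replicate 7 (adjusted p = 0.042).

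Among the 6 collagen IV genes, COL4A3 and COL4A4 rose in both periods, COL4A1 rose from GD60 to GD90, and no member passed as lower. Of all genes, 9.35% were called higher and 7.37% lower in the first period, and 21.4% higher and 20.9% lower in the second. COL4A1 and COL4A2 encode the chains of the collagen IV network found in nearly all basement membranes, including those of brain vessels. The pair had unlike values at GD90. COL4A1 had a level of 171, 224 and 257 CPM at GD45, 196, 202 and 257 CPM at GD60, and 266, 273 and 280 CPM at GD90, so that the 6 GD90 libraries lay close together and above all others. COL4A1 rose 1.33-fold from GD60 to GD90 (log2 change 0.41 ± 0.07, edgeR adjusted p = 0.00019), after -0.06 ± 0.07 in the first period (adjusted p = 0.65). COL4A2 had a level of 349, 428 and 455 CPM at GD45, 378, 428 and 455 CPM at GD60, and 360, 442 and 452 CPM at GD90, with log2 changes of 0.02 ± 0.07 in each period (edgeR adjusted p = 0.88 and 0.87). The sum of 8 mural cell markers was also higher in every GD90 library (320 to 357 CPM) than in any GD60 library (201 to 251 CPM), and its part in the COL4A1 change was not tested. The FPKM ratio of COL4A1 to COL4A2 within a library was 1.15 to 1.46 at GD45, 1.12 to 1.38 at GD60 and 1.46 to 1.89 at GD90. This ratio rests on the short COL4A1 model of the table, which holds the part of the gene far from its RefSeq start.

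COL4A1 and COL4A2 lie head to head and are known to be read from a shared promoter in opposite directions, so the bases between them are shown because their levels diverged at GD90. The sequence spans chr11:76997410-76997515, from the RefSeq start of COL4A1 (to its left, minus strand) to the COL4A2 start of the deposited table (to its right, plus strand), and is written 5′ to 3′ on the plus strand (Sscrofa11.1). Capitals mark CCAAT, and GGGCGG or its reverse complement CCGCCC.
COL4A1-COL4A2: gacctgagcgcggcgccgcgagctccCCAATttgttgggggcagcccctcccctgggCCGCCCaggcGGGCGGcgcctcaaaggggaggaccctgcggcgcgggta
These 106 bases held 1 CCAAT and 2 GGGCGG motifs and no TATAAA, and 76.4% of them were G or C. Of 30438 windows of 106 bases before gene starts, 17.0% held CCAAT, 25.5% GGGCGG and 6.29% TATAAA. The RefSeq model of COL4A2 starts earlier, at position 76996885, and holds these bases in an intron.

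COL4A3 and COL4A4 encode chains of the other collagen IV network, best known from the kidney filter, the inner ear and the eye. COL4A3 had a level of 1.19, 1.57 and 2.59 CPM at GD45, 1.57, 3.45 and 3.74 CPM at GD60, and 8.41, 10.8 and 14.7 CPM at GD90. COL4A4 had 2.57, 4.90 and 5.77 CPM at GD45, 6.76, 10.6 and 15.0 CPM at GD60, and 13.8, 25.1 and 36.4 CPM at GD90. For COL4A4 no GD45 library reached the GD60 range and the GD60 and GD90 ranges overlapped, whereas for COL4A3 no GD60 library reached the GD90 range. COL4A3 rose by a log2 change of 0.84 ± 0.24 from GD45 to GD60 and 1.85 ± 0.22 from GD60 to GD90 (edgeR adjusted p = 0.022 and 5.69e-06), and COL4A4 by 1.16 ± 0.19 and 1.27 ± 0.19 (adjusted p = 0.00055 and 4.24e-05). The first of these COL4A3 calls passed in 15 of the 18 fits that left out a library, with an adjusted p of up to 0.0628 (without male GD60 replicate 6). It did not pass with exon counts summed per gene (edgeR adjusted p = 0.0693) or with only the libraries compared (0.0615). Their genes start 514 bases into each other on opposite strands of chromosome 15, at chr15:128472228-128612379 (COL4A4) and chr15:128611866-128763122 (COL4A3), and reads in the shared bases could be assigned to either gene or to none. COL4A5 and COL4A6, which lie head to head on chromosome X, passed in neither period. COL4A5 had day medians of 30.8 to 37.2 CPM, COL4A6 of 22.1 to 30.0 CPM, and their log2 changes lay between -0.18 and 0.02. The FPKM ratio of COL4A4 to COL4A6 was 0.108 to 0.160 at GD45, 0.216 to 0.423 at GD60 and 0.60 to 1.4 at GD90, again chosen after the values had been seen.

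The remaining 24 collagens, of which 22 were tested, gave 8 calls from GD45 to GD60 (3 higher and 5 lower) and 10 from GD60 to GD90 (6 higher and 4 lower). Of all genes, 16.7% were called in the first period (9.35% higher and 7.37% lower) and 42.4% in the second (21.4% higher and 20.9% lower). COL21A1, a fibril-associated collagen of vessel walls, had a level of 2.50, 3.49 and 4.63 CPM at GD45, 4.22, 7.96 and 12.6 CPM at GD60, and 13.3, 15.6 and 17.2 CPM at GD90, with the GD90 libraries above all others. Its log2 change was 1.21 ± 0.20 in the first period and 0.96 ± 0.19 in the second (edgeR adjusted p = 0.00052 and 0.00074). COL19A1, a fibril-associated collagen made by some hippocampal interneurons, had 0.330, 0.430 and 0.910 CPM at GD45, 0.362, 1.04 and 2.38 CPM at GD60, and 2.67, 5.62 and 10.5 CPM at GD90, with no overlap between GD60 and GD90. COL19A1 rose 5.59-fold from GD60 to GD90 (log2 change 2.48 ± 0.30, edgeR adjusted p = 5.62e-06), after a log2 change of 1.09 ± 0.35 (adjusted p = 0.041) that passed in 7 of the 18 fits without a library and reached an adjusted p of 0.14 without male GD60 replicate 4. That first change of COL19A1 did not pass with counts summed per litter (edgeR adjusted p = 0.0922). COL8A2, a network-forming collagen of endothelial and corneal basement membranes, had 6.54, 10.7 and 14.6 CPM at GD45, 9.38, 14.9 and 17.8 CPM at GD60, and 17.9, 20.8 and 23.7 CPM at GD90, with 17.8 and 17.9 CPM as the nearest GD60 and GD90 libraries. Its log2 change was 0.49 ± 0.16 and then 0.56 ± 0.16 (edgeR adjusted p = 0.048 and 0.010), and the first of these passed in 3 of the 18 fits, with an adjusted p of up to 0.15 (without female GD60 replicate 3).

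COL22A1, a collagen of tissue junctions such as that of muscle and tendon, had a level of 2.48, 3.38 and 3.96 CPM at GD45, 2.94, 4.58 and 6.47 CPM at GD60, and 7.21, 13.6 and 18.4 CPM at GD90. All GD90 libraries lay above all earlier ones, and COL22A1 rose 2.92-fold from GD60 (log2 change 1.55 ± 0.22, edgeR adjusted p = 2.46e-05), after 0.48 ± 0.22 (adjusted p = 0.16). COL28A1, known from the sheaths of peripheral nerves, was near the detection limit, with 0 to 0.171 CPM at GD45, 0 to 0.475 CPM at GD60 and 0.356 to 0.964 CPM at GD90, and at most 17 counts in a library. Its log2 change from GD60 to GD90 was 1.81 ± 0.57 (edgeR adjusted p = 0.017), a fitted value that rests on few counts, and leaving out a library in turn moved it between 1.54 and 2.62. COL23A1, a transmembrane collagen, rose by a log2 change of 0.60 ± 0.17 from GD60 to GD90 (edgeR adjusted p = 0.010), with day medians of 7.35, 5.41 and 8.11 CPM.

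**Figure D5:**
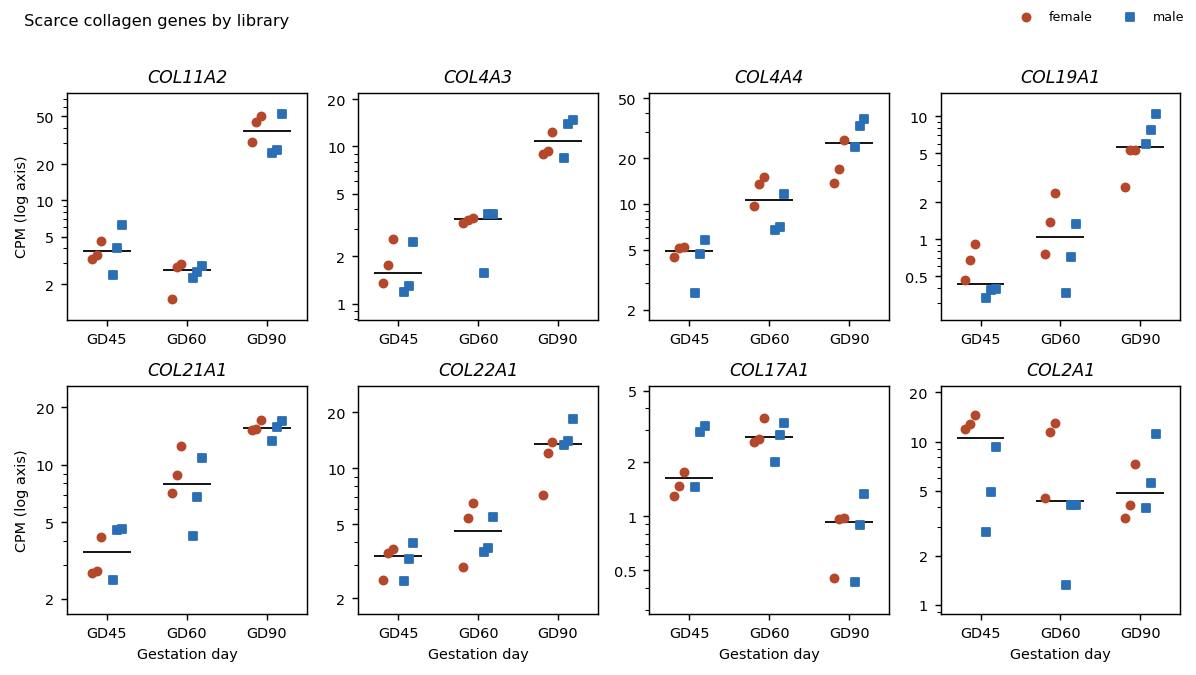
Level (CPM, log axis) of 8 scarcer collagen genes in each library by gestation day. Circles are females, squares males and the line is the median of 6 libraries. COL11A2, COL4A3, COL19A1, COL21A1 and COL22A1 have all GD90 libraries above all GD60 libraries, COL17A1 has all of them below, and the days overlap for COL2A1 and, between GD60 and GD90, for COL4A4.

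The 5 genes that were lower at GD60 than at GD45 were COL6A1, COL6A2, COL9A1, COL9A3 and COL18A1. COL6A1 and COL6A2 encode chains of type VI collagen, the beaded filament of connective tissue around cells and nerves. COL6A1 had a level of 86.2, 121 and 137 CPM at GD45, 73.5, 90.9 and 102 CPM at GD60, and 87.3, 90.5 and 104.2 CPM at GD90, with overlap between the days, and fell by 0.40 ± 0.09 on the log2 scale in the first period (edgeR adjusted p = 0.0041). COL6A2, on an unplaced scaffold, had 114, 122 and 147 CPM at GD45, 88.2, 98.3 and 102 CPM at GD60, and 71.0, 76.8 and 101 CPM at GD90. Every GD60 library was below every GD45 library for COL6A2, which fell by 0.39 ± 0.10 (edgeR adjusted p = 0.013), after which its log2 change of -0.24 ± 0.10 did not pass (adjusted p = 0.072). This later COL6A2 change passed without male GD45 replicate 17 (edgeR adjusted p = 0.047), without its litter of 8 (0.027), without male GD90 replicate 1 (0.011), without TMM scaling (0.029) and with only the libraries compared (0.045). COL6A3, the remaining chain of the common type VI molecule, passed in neither period, with log2 changes of 0.20 ± 0.14 and -0.10 ± 0.14 (edgeR adjusted p = 0.35 and 0.60). Without male GD45 replicate 11 its first log2 change was 0.36 and passed (edgeR adjusted p = 0.048). The falls of COL6A1 and COL6A2 passed in all 18 fits that left out a library, but with exon counts summed per gene COL6A1 did not (adjusted p = 0.0715). The exon table held 12.1% of the gene counts of COL6A1 and 72.6% of those of COL6A2.

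COL9A1 and COL9A3 encode chains of type IX collagen, which coats cartilage fibrils. COL9A1 had a level of 16.2, 22 and 28.4 CPM at GD45, 7.2, 15.9 and 18.0 CPM at GD60, and 13.2, 18.0 and 24.1 CPM at GD90, and fell by 0.59 ± 0.17 on the log2 scale in the first period (edgeR adjusted p = 0.028). COL9A3 had 67.5, 76.0 and 115 CPM at GD45, 43.6, 62.1 and 70.7 CPM at GD60, and 41.2, 55.6 and 71.0 CPM at GD90, and fell by 0.54 ± 0.16 (edgeR adjusted p = 0.033). The GD45 and GD60 ranges overlapped for both genes, and each call passed in 13 of the 18 fits. With counts summed per litter neither passed (edgeR adjusted p = 0.0655 for COL9A1 and 0.0753 for COL9A3). The highest COL9A3 level of GD45 was that of male GD45 replicate 17, and without its litter of 8 the log2 change of COL9A3 was -0.29 and did not pass (adjusted p = 0.13). COL9A3 overlaps GID8 along the same strand over 18416 bases, so reads there could be assigned to either gene or to none. COL18A1, a multiplexin of vascular and epithelial basement membranes and the source of endostatin, had day medians of 161, 126 and 116 CPM and fell by 0.32 ± 0.10 (edgeR adjusted p = 0.0445), which passed in 5 of the 18 fits and reached an adjusted p of 0.11 without female GD60 replicate 3. The fall of COL18A1 did not pass with counts summed per litter (edgeR adjusted p = 0.0787).

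COL17A1, COL26A1, COL12A1 and COL15A1 fell from GD60 to GD90. COL17A1, a transmembrane collagen of the junctions that fix epithelial cells to their basement membrane, had a level of 1.29, 1.62 and 3.19 CPM at GD45, 1.99, 2.77 and 3.53 CPM at GD60, and 0.431, 0.927 and 1.32 CPM at GD90. All its GD90 libraries lay below all GD60 libraries, and it fell by 1.72 ± 0.27 on the log2 scale (edgeR adjusted p = 7.51e-05). With the exon table the COL17A1 log2 change was -1.13 (adjusted p = 0.025). COL26A1, a secreted collagen with an EMI domain and next in mean FPKM after the 5 most abundant members, had 123, 158 and 188 CPM at GD45, 102, 135 and 167 CPM at GD60, and 61.7, 73.3 and 82.6 CPM at GD90. Its GD90 libraries were below all others, and it fell by 0.87 ± 0.13 (edgeR adjusted p = 3.79e-05), after a log2 change of -0.20 ± 0.12 (adjusted p = 0.30). COL12A1, which coats fibrils under tension, had 46.9, 74.9 and 98.9 CPM at GD60 and 31.7, 49.7 and 66.4 CPM at GD90, with overlap, and fell by 0.59 ± 0.20 (edgeR adjusted p = 0.026), a call that passed in 13 of the 18 fits and reached an adjusted p of 0.0691 without female GD60 replicate 3. The fall of COL12A1 did not pass with exon counts summed per gene (edgeR adjusted p = 0.11). COL15A1, a multiplexin beside basement membranes, had 19.2, 22.1 and 25.0 CPM at GD60 and 12.1, 14 and 18.5 CPM at GD90 without overlap, and fell by 0.59 ± 0.09 (edgeR adjusted p = 6.37e-05). With exon counts summed per gene the COL15A1 log2 change was -0.36 and did not pass (adjusted p = 0.20). The exon table held 22.7% of the COL15A1 gene counts. The tested genes of this class that passed in neither period were COL6A3, COL6A6, COL8A1, COL13A1, COL14A1, COL16A1 and COL25A1. Of these COL25A1, a transmembrane collagen of neurons, had a level of 1.05, 5.80 and 8.03 CPM at GD45, 4.04, 8.96 and 17.0 CPM at GD60, and 6.30, 17.7 and 23.9 CPM at GD90 and log2 changes of 0.87 ± 0.34 and 0.69 ± 0.33 (edgeR adjusted p = 0.092 and 0.10). The first COL25A1 change was 1.04 and passed without female GD60 replicate 15 (edgeR adjusted p = 0.036), and it passed by DESeq2 (0.049). The second passed without male GD45 replicate 17 (edgeR adjusted p = 0.023), without its litter of 8 (0.025) and with only the libraries compared (0.037). COL14A1, a fibril-associated collagen, had a log2 change of 0.30 from GD45 to GD60 (edgeR adjusted p = 0.19), which was 0.47 and passed without male GD45 replicate 11 (adjusted p = 0.022).

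Calls were lost without either of the 2 libraries that stood apart, and also without other libraries. Without male GD45 replicate 17, the changes from GD45 to GD60 of COL19A1, COL18A1 and COL8A2 no longer passed (edgeR adjusted p = 0.055, 0.056 and 0.089). Without female GD60 replicate 15, those of COL18A1 and COL9A3 in the first period and of COL11A1 in the second no longer passed (edgeR adjusted p = 0.052, 0.061 and 0.077). Without male GD60 replicate 4, COL19A1, COL9A1, COL18A1, COL8A2, COL4A3 and COL9A3 lost their first-period calls (edgeR adjusted p 0.054 to 0.14). COL12A1 lost its second-period call there (edgeR adjusted p = 0.066).

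The second question was whether these changes held within each sex, where the 3 libraries of a group come from separate litters. Between GD45 and GD60, 3 of 39 genes passed in females by edgeR, where 7.22% of all genes were called, 4.34% higher and 2.88% lower: COL21A1 (log2 change 1.55) and COL4A4 (1.38) were higher at GD60 and COL6A1 (-0.59) was lower. In males none passed, where 5.61% of all genes were called. An unadjusted p under 0.05 was reached by 5 of the 39 collagens and by 2960 of the 16325 genes tested. The lowest edgeR adjusted p of a collagen in males was 0.057, for COL4A4, with a log2 change of 0.94. DESeq2 and edgeR's likelihood ratio test each called 2 collagens in males, COL4A4 and COL21A1. Between GD60 and GD90, 12 genes passed in females, 7 higher and 5 lower, where 27.1% of all genes were called, 13.7% higher and 13.4% lower. In males 15 passed, 11 higher and 4 lower, where 34.5% of all genes were called, 18.5% higher and 16% lower. Both sexes shared 10 of these, that is 10 of the 12 female and 10 of the 15 male calls, and all 10 had the same direction: COL4A1, COL4A3, COL11A2, COL19A1, COL21A1 and COL22A1 higher, and COL3A1, COL15A1, COL17A1 and COL26A1 lower. The overlap was not counted over all genes, and females and males came from the same litters, so it is not read as a trait of collagens. COL11A2 had a log2 change of 4.22 in females and 3.74 in males, and COL3A1 of -0.82 and -0.52. COL9A1 and COL12A1 passed among females, and COL1A1, COL4A4, COL11A1, COL25A1 and COL27A1 among males, but no collagen passed a test of the difference between the sexes in this change.

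Males and females of the same day gave no collagen gene past an adjusted p of 0.05 by edgeR's quasi-likelihood or likelihood ratio test or by DESeq2. Of all genes, 0.0919% were called at GD45, 0.098% at GD60 and 0.098% at GD90. An unadjusted edgeR p under 0.05 was reached by 3, 3 and 10 of the 39 genes on these days, and by 423, 784 and 2213 of all 16325 genes. The lowest edgeR adjusted p of a collagen was 0.995, 0.779 and 0.350. COL2A1 had a log2 difference of -1.12 between males and females at GD45 (edgeR adjusted p = 0.995) and of -1.54 at GD60 (edgeR adjusted p = 0.779). At GD90 all 10 genes with an unadjusted p under 0.05 were higher in males, led by COL12A1 (log2 difference 0.76), COL15A1 (0.33) and COL6A3 (0.50), and none passed. With only the 6 GD90 libraries in the fit, COL12A1, COL6A3, COL25A1 and COL5A2 passed, with adjusted p from 0.0377 to 0.0468. The share of all genes called in that smaller fit is not given here, so these calls are not read as a trait of collagens. The change from GD60 to GD90 gave no gene past the interaction test of the sexes (0% of all genes called by edgeR). An unadjusted p under 0.05 was reached by 12 of the 39 genes and by 3232 of all 16325 genes. The lowest edgeR adjusted p was 0.19 for COL4A4, whose log2 change was 0.67 in females and 1.87 in males. That no collagen passed depended on male GD45 replicate 17. Without it 6 collagens passed, COL5A2, COL25A1, COL11A1 and COL4A4 with the more positive change in males and COL26A1 and COL9A3 with the more negative one. This library belongs to neither day compared, and the share of all genes called without it is not given here. The 6 are therefore not read as a trait of collagens. From GD45 to GD60 the interaction gave 1 of the 39 genes at an unadjusted p under 0.05, beside 333 of all genes, and none past the adjusted threshold (0% of all genes).

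Collagen chains are hydroxylated, folded and glycosylated in the endoplasmic reticulum, trimmed and crosslinked outside the cell and bound there by integrins and discoidin domain receptors. Of 17 folding and modification enzymes, 1 was higher and 3 lower at GD60 than at GD45, and 4 were higher and 5 lower at GD90 than at GD60. Of all genes, 16.7% were called in the first of these comparisons (9.35% higher and 7.37% lower) and 42.4% in the second (21.4% higher and 20.9% lower). The largest of the later changes were in P3H4, a part of the lysyl hydroxylase complex (log2 change -0.96 ± 0.18, edgeR adjusted p = 0.00040), and P4HA1, the catalytic subunit of a prolyl hydroxylase (0.91 ± 0.13, adjusted p = 2.33e-05). P3H2, a prolyl hydroxylase with a preference for collagen IV, was the gene of this list that rose from GD45 to GD60 (0.67 ± 0.17, edgeR adjusted p = 0.013). Among 12 processing and crosslinking enzymes, 2 were higher and 3 lower at GD60, with the largest change in LOXL4, a lysyl oxidase (-1.14 ± 0.38, edgeR adjusted p = 0.048), and 1 was higher and 1 lower at GD90, TLL1, a procollagen C-proteinase (1.29 ± 0.21, adjusted p = 0.00013), and LOXL3 (-0.35 ± 0.12, adjusted p = 0.025). None of the 9 collagen receptors tested passed at GD60 by edgeR, with 1 at an unadjusted p under 0.05, and DESeq2 called 1, ITGA10, named after its value had been seen. At GD90 3 were higher, DDR2 (log2 change 1.17 ± 0.41), ITGA1 (0.83 ± 0.19) and ITGA11 (0.60 ± 0.18). Of 16 basement membrane partners tested, 1 was higher at GD60 and 7 were higher and 2 lower at GD90, led by the laminin chain LAMA3 (log2 change 1.53 ± 0.27, edgeR adjusted p = 0.00028) and PXDN, the peroxidase that crosslinks collagen IV (-1.28 ± 0.10, adjusted p = 4.09e-08). The median log2 change from GD60 to GD90 was -0.05 in the folding list, 0.06 in the crosslinking list, -0.08 in the receptors and 0.16 in the basement membrane partners, beside -0.01 for all genes.

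Markers of other cell types are given because collagens are made by several of them. Of the 8 mural cell markers (smooth muscle cells and pericytes), 5 were higher at GD90 than at GD60 and none lower, where 21.4% of all genes were called higher and 20.9% lower, with MYH11 (log2 change 1.84 ± 0.17) and RGS5 (1.33 ± 0.18) leading, and their sum was 201 to 251 CPM at GD60 and 320 to 357 CPM at GD90. The sum of 10 endothelial markers was 435 to 556 CPM at GD60 and 496 to 599 CPM at GD90, with 2 of 10 higher. Of 11 fibroblast markers tested, 1 was higher (SLC47A1) and 1 lower (LUM) at GD60, and 2 were higher and 2 lower at GD90, with DCN falling most (log2 change -1.09 ± 0.16, edgeR adjusted p = 4.72e-05), and the sum of the listed 12 was 124 to 274, 165 to 186 and 126 to 160 CPM on the 3 days. Markers of cartilage and bone summed to 45.6 to 70.3, 47.6 to 59.4 and 41.1 to 48.0 CPM, those of skeletal muscle to 4.55 to 7.70, 8.51 to 14.1 and 14.6 to 23.2 CPM, and those of epidermis to 34.2 to 44.6, 29.6 to 48.0 and 24.4 to 36.8 CPM. Within the cartilage and bone list 2 genes were higher and 2 lower in each period, ACAN, a proteoglycan also made in brain, rising most (log2 change 1.89 ± 0.26 and 1.43 ± 0.23, edgeR adjusted p = 0.00011 and 0.00010). In the skeletal muscle list 1 of the 3 genes tested, ACTA1, was higher in each period, and in the epidermis list 1 of 3, DSP, was lower at GD90. Markers of brain cells summed to 2097 to 3122, 3030 to 4642 and 4900 to 6517 CPM. Of the 6 tested, 4 were higher and 0 lower at GD60, where 9.35% of all genes were called higher and 7.37% lower. At GD90 4 were higher and 1 lower, with MBP, a myelin protein, rising most (log2 change 5.32 ± 0.22). In none of these lists was a marker at 0 in every library. The part of these cell types in the collagen changes was not tested.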

How the data were processed

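RNA from whole brains of 18 fetuses was sequenced. Per the labels and methods, the authors checked reads with FastQC, trimmed them with Trimmomatic, aligned them to Sscrofa11.1 with HISAT2 and counted them with featureCounts against Ensembl genes. Options for strand, multimapping reads and shared features are not given in the sources used here. The deposited values are raw counts per gene and per exon. A transcript table was not used.

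Repeat runs of 4 libraries were summed. CPM was taken per total gene counts and FPKM by the exon length of the table. Genes that passed filterByExpr (16325) were tested with edgeR 4.0.16 in R 4.3.3 (TMM, quasi-likelihood F test, 1 coefficient for each of 6 groups, Benjamini-Hochberg adjustment, threshold 0.05), checked first on simulated data. Standard errors were taken as the log2 change over the square root of F. P-values between days measure the spread between fetuses, of which each pair of a litter shares a dam.

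The members and lists were chosen with earlier results of these data known. The rule named COL1A1, COL1A2, COL2A1, COL3A1, COL4A1 and COL4A2, and in each of the fibrillar, basement membrane and other classes the 3 that rose and the 3 that fell most among those called in each period. Of other lists up to 2 genes per period with the largest change among those called were named, and ITGA11 was named after its value had been seen. Alternatives were DESeq2 1.42.0, a likelihood ratio test, other scalings and filters, exon counts, fewer libraries, litter sums and a litter block. Upstream sequences are from the RefSeq genome of the same build.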

Additional observations from a re-analysis of the deposited data

Results flagged for a closer look

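Each of the 39 tested genes was examined at each day for a library far from the other 5 by Dixon's test at the 95% level, 117 groups in all, and 3 libraries stood out, where chance alone gives about 1 group in 20. COL4A1 at GD60 had a level of 257 CPM in male GD60 replicate 4, with the next library at 211 CPM. COL4A3 at GD60 had a level of 1.57 CPM in male GD60 replicate 16, with the next at 3.24 CPM. COL9A1 at GD60 had a level of 7.2 CPM in female GD60 replicate 15, with the next at 14.9 CPM.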

How the results depend on the processing

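Over all alternatives, 2019 of the collagen log2 changes with the sexes averaged kept their direction and their side of the threshold, 49 did not pass in either fit and had the other sign, 87 no longer passed, 18 newly passed and 0 of those that passed reversed. The 49 came from 12 changes, among them those of COL15A1 and COL1A1 from GD45 to GD60 and of COL2A1, COL4A5 and COL9A3 from GD60 to GD90. The 10 calls from GD45 to GD60 became 5 with exon counts summed per gene, 4 with only the libraries compared and 6 with counts summed per litter, and 4 to 10 when each library in turn was left out (4 without male GD60 replicate 4, 5 without male GD60 replicate 6, and 6 without female GD45 replicate 12 or female GD60 replicate 5). COL4A4, COL21A1 and COL6A2 passed in each of these settings. The calls lost with counts summed per litter were those of COL9A1, COL9A3, COL18A1 and COL19A1. The 19 calls from GD60 to GD90 were 17 to 21 with a library left out. Within females the first period gave 3 to 8 calls with a library left out (8 without male GD45 replicate 17) and 6 without the GD45 litter of 8. Within males it gave 0 to 2 (2 without male GD45 replicate 11, 1 without male GD45 replicate 17, male GD60 replicate 16, female GD90 replicate 2 or female GD90 replicate 7), and 2 by DESeq2 and by the likelihood ratio test. The second period gave 10 to 18 in each sex. With only the libraries compared, 4 collagens differed between the sexes at GD90 and 4 passed the interaction from GD60 to GD90. That interaction gave 6 without the GD45 litter of 8 and 0 to 6 with a library left out (6 without male GD45 replicate 17). With litter as a replicate block, 0 collagens passed at any day or in either interaction, so it changed no call. Smaller fits have fewer residual degrees of freedom, and the cause of the other shifts was not tested. The shares of all genes called in these alternative fits are not given here, so no shift in a count is read as particular to collagens. Depth limits COL28A1, COL6A6, COL10A1 and COL6A5, which have at most 17 counts in a library.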
